A study of Mus musculus with 4 samples.

Results

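Cytochrome P450 enzymes are haem proteins that insert oxygen into drugs, fatty acids, steroids and sterols. In mice most of the detoxifying members are made in the liver, and smaller sets belong to airway, kidney, adrenal and other epithelia. The P450 genes were taken from 4 arrays of 2 colours by name: probes whose gene name was Cyp, a family number, and, where present, a subfamily letter and a member number, without Cyp26a1, Cyp26b1, Cyp11a1, Cyp11b1, Cyp17a1 and Cyp21a1. This gave 84 genes with 108 probes, out of 23980 named genes with 39429 probes.

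The RNA was isolated from E18.5 ureters, taken shortly before birth from mouse embryos of the NMRI strain. The conditional mutant, called cKO, carried 1 copy of the Cre driver (Pax2-cre/+) together with Trp63(dN-flox/dN-flox), that is, both alleles of the basal cell factor p63 were floxed for the ΔN form. The control had the genotype Trp63(dN-flox/?), with its other allele not given and no cre listed. Pax2 is a gene of the nephric duct, from which the epithelium of the ureter grows. Each array held 1 cKO RNA and 1 control RNA, so there were 4 RNAs per genotype. The cKO was in the red channel on arrays 1 and 3 and in the green channel on arrays 2 and 4, and array 2 held a male pair where the other 3 held female pairs.

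The median spot signal was 460.3 to 607.3 units in the 8 channels, over a median local background of 31 to 82 units, and between 71.7% and 89.4% of probes were well above background. The Trp63 probe had a log2 ratio of -2.18 (limma adjusted p = 0.0020). Whether that probe lies in the floxed part of the gene was not determined here. All 11 urothelial and all 7 smooth muscle and mesenchyme markers were bright enough to be tested. The labels do not say that the RNAs came from separate embryos, and the p-values therefore cover the array-to-array spread alone. In RNA of a whole organ, fewer cells of a type and less RNA per cell cannot be told apart.

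Of the 84 P450 genes, 52 were tested, meaning that a probe was well above background on all 4 arrays in at least 1 genotype. Of these 52, 47 were well above background on all 4 arrays in both genotypes. A gene passed at an adjusted p under 0.05 over all 17952 tested genes. With that threshold 5 P450 genes were higher in the cKO and 6 were lower. Over all tested genes 8.67% passed, 2.98% higher and 5.69% lower. The higher genes were Cyp2f2, Cyp2e1, Cyp4a32, Cyp4b1 and Cyp7b1, and the lower ones were Cyp4f15, Cyp2s1, Cyp4v3, Cyp39a1, Cyp3a25 and Cyp3a57. The median log2 ratio of the 52 genes was 0.04, beside 0.00 over all tested genes. The counts varied when an array was left out. Leaving out array 1 gave 4 higher and 3 lower P450 genes. Leaving out array 2 gave 5 higher and 4 lower, array 3 gave 3 higher and 5 lower, and array 4 gave 10 higher and 3 lower.

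**Figure D1:**
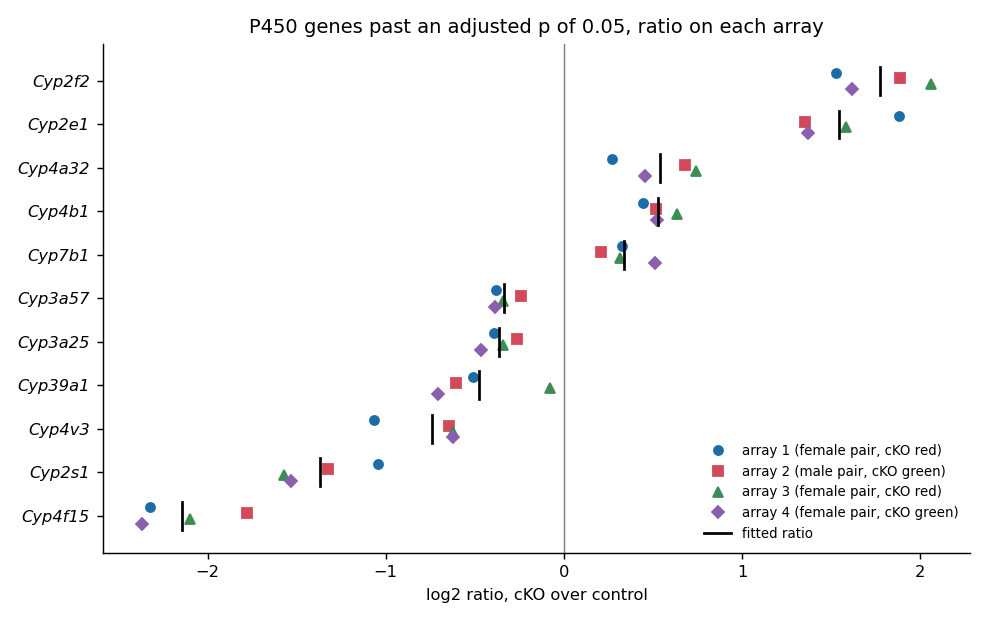
Log2 ratio of cKO over control (horizontal axis) for the 11 P450 genes past the threshold (vertical axis), with 1 symbol per array and a black bar at the fitted ratio. Every gene shown has its 4 symbols on 1 side of 0, and Cyp4f15 lies lowest at -2.14 and Cyp2f2 highest at 1.77.

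The 4 genes with the largest fitted changes of either sign were Cyp2f2, Cyp2e1, Cyp4f15 and Cyp2s1. Their promoters are shown because the letter matches described below were sought in them. Each sequence is the RefSeq window from 250 bases before to 50 bases after the gene's start in GRCm38.p6, 5′ to 3′ on the gene's strand. Capitals mark CATG, the core letters of binding sites of the p53 family, and TATAAA, the TATA box.

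Cyp2f2, chr7:27119705-27120004, plus strand: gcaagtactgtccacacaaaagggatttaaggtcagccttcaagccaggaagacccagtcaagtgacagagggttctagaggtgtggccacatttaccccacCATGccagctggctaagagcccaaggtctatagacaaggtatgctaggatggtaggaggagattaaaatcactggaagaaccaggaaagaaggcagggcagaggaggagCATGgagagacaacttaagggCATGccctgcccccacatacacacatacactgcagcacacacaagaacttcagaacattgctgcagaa

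Cyp2e1, chr7:140763569-140763868, plus strand: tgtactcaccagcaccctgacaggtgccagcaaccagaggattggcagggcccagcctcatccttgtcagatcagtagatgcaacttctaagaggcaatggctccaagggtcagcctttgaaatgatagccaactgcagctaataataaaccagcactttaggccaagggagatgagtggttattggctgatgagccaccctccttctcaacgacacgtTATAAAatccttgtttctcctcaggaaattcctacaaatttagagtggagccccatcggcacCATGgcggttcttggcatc

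Cyp4f15, chr17:32685409-32685708, plus strand: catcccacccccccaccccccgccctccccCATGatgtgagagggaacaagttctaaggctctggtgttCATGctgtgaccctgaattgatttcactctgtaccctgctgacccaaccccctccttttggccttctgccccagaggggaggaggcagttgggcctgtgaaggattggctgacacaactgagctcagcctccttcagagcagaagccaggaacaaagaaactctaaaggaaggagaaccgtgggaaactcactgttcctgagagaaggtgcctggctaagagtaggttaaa

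Cyp2s1, chr7:25816476-25816775, minus strand: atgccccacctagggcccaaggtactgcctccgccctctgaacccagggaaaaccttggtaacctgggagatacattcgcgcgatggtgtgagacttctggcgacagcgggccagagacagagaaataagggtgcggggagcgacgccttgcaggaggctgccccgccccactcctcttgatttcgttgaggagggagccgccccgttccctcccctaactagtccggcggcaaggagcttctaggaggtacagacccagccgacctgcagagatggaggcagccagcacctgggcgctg

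Promoters were available for 9 of the 11 genes, all but Cyp39a1 and Cyp7b1. The search covered both strands. Beside CATG and the TATA box, the letters reported are GCGTG for the aryl hydrocarbon receptor and a pair of p53 family cores spelled CATGNNNNNNCATG. A lone core was also counted where it belonged to such a pair. In the Cyp2f2 window CATG began 148, 39 and 18 bases upstream of the start. In Cyp4f15 it began 220 and 181 bases upstream. In Cyp4b1 it began 214 bases upstream and 33 bases downstream. The only CATG of the Cyp2e1 window began 31 bases downstream of the start, so that window counts as holding CATG without one upstream. The Cyp2e1 window held TATAAA beginning 31 bases upstream of the start, and the Cyp2s1 window held none of these motifs. CATG stood in 6 of the 9 windows and in 61.5% of 27025 mouse promoters, and the 6 included genes that were higher and genes that were lower in the cKO. TATAAA stood in 2 windows, those of Cyp2e1 and Cyp4a32, and in 14.2% of all promoters. GCGTG was found in Cyp4v3 alone of the 9 and in 32.5% of all promoters. The paired cores were in 0 of the 9 windows and in 0.770% of all promoters. Matches are of letters only, since no binding was measured.

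Cyp2e1, which oxidises ethanol and other small molecules in liver, was 2.92-fold higher in the cKO. Its level, as log2 normalized intensity, was 12.65, 12.58, 12.32 and 12.48 in the cKO RNAs of arrays 1 to 4, against 10.77, 11.23, 10.74 and 11.11 in the control RNAs. Each cKO value lay above each control value. The log2 ratio was 1.55 ± 0.25 (SD, n = 4 arrays; limma adjusted p = 0.000555). Its second probe, 3.7 kb away in the mouse build mm9, had a mean ratio of 1.71 with 4 positive arrays. Cyp2e1 kept its call under all 14 alternative settings.

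Cyp2f2, known in mice among other things for activating naphthalene in airway club cells, was 3.42-fold higher in the cKO. The levels were 8.09, 9.98, 9.46 and 9.12 in the cKO and 6.57, 8.09, 7.39 and 7.50 in the control. The levels varied widely within each genotype, and the lowest cKO value (8.095) was just above the highest control value (8.093). On each array, however, the ratio was large, at 1.53, 1.89, 2.06 and 1.61, with a fitted value of 1.77 ± 0.25 (SD, n = 4 arrays; limma adjusted p = 0.00126). Treating the channels as separate samples with no array block ended the call (adjusted p = 0.120). Over all 14 settings the adjusted p lay between 0.000102 and 0.120. Of the 6 club cell markers, 3 were tested and 0 passed in limma, with 1 (Scgb1a1) at an unadjusted p under 0.05. The summed level of the list, in which Aldh3a1 (0.00) weighs most, was 1440 to 1553 in the cKO and 1375 to 1589 in the control. Scgb1a1, the secretoglobin that defines those cells, had a ratio of -0.18. Its probe was dim, with mean levels of 6.94 in the cKO and 7.12 in the control.

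**Figure D2:**
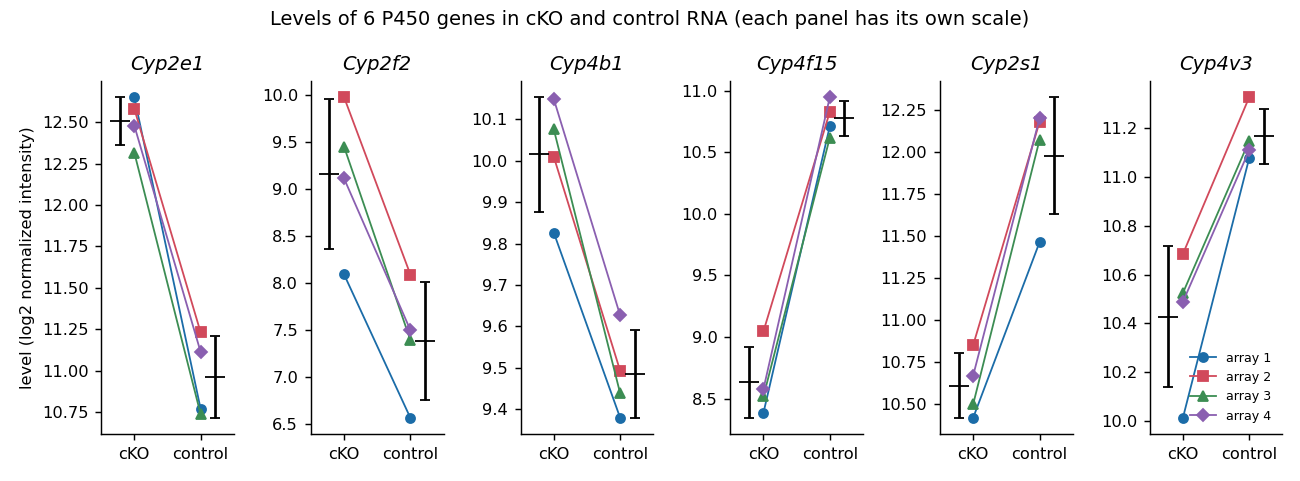
Log2 normalized intensity (vertical axis, a separate scale in each panel) of 6 P450 genes in cKO RNA (left) and control RNA (right), with lines joining the 2 RNAs of an array and black bars for the mean and SD of 4 RNAs. The first 3 genes are higher in the cKO on every array and the last 3 are lower, with no overlap of the levels.

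Cyp2s1, an epithelial P450 of tissues outside the liver that the aryl hydrocarbon receptor can induce, was 2.58-fold lower in the cKO. It had levels of 10.42, 10.85, 10.50 and 10.67 in the cKO and 11.46, 12.18, 12.07 and 12.20 in the control. The groups did not overlap, and array 1 had the lowest control level. The ratio was -1.37 ± 0.24 (SD, n = 4 arrays; limma adjusted p = 0.00226), and the call held under all 14 alternatives. Besides Cyp2f2, the tested genes of its group, Cyp2t4 (0.12), Cyp2a4 (0.01) and Cyp2b13 (0.00), did not pass. Cyp2a12, Cyp2a22, Cyp2b10, Cyp2b19, Cyp2b23, Cyp2b9 and Cyp2g1 were not tested.

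Cyp4f15, of the subfamily that hydroxylates leukotrienes and long fatty acids at their end, was 4.42-fold lower in the cKO. Cyp4f15 levels were 8.39, 9.05, 8.52 and 8.58 in the cKO, against 10.71, 10.83, 10.62 and 10.95 in the control. All cKO levels were far below all control levels. The log2 ratio was -2.14 ± 0.27 (SD, n = 4 arrays; limma adjusted p = 0.000843). No alternative setting ended this call.

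Cyp4v3, the mouse counterpart of the human fatty acid hydroxylase CYP4V2, was lower in the cKO as well. Levels of 10.01, 10.68, 10.52 and 10.49 in the cKO stood against 11.08, 11.33, 11.15 and 11.11 in the control. The log2 ratio was -1.07 on array 1 and between -0.64 and -0.62 on the others, for a fitted -0.74 ± 0.22 (SD, n = 4 arrays; limma adjusted p = 0.0084). Cyp4b1, which oxidises fatty acids and activates aromatic amines, went the other way. Its levels were 9.83, 10.01, 10.08 and 10.15 in the cKO and 9.38, 9.49, 9.44 and 9.63 in the control, a log2 ratio of 0.53 ± 0.08 (SD, n = 4 arrays; limma adjusted p = 0.0076). Both calls held under all 14 alternatives.

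Some markers of the urothelium, the epithelium of the ureter, were lower beside Cyp4f15, Cyp2s1 and Cyp4v3. Of 11 urothelial markers 4 were lower in the cKO (Krt5 at -2.86, Krt15 at -2.55, Trp63 at -2.18 and Upk1a) and 0 were higher. Trp63 is the gene targeted in the cKO, so its decrease is no separate result. Upk1a (-0.67) lay just under the threshold (limma adjusted p = 0.0497). The other 7 did not pass, with ratios from -0.63 for Upk1b to 0.00 for Krt8. The summed urothelial level, in which bright probes such as those of Upk1a and Upk3a (-0.22) weigh most, was 438364 to 672517 in the cKO and 738093 to 834879 in the control. The part of these markers in the P450 results was not tested.

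Cyp4a32, of the Cyp4a fatty acid hydroxylases, had levels of 6.65, 7.39, 7.25 and 6.95 in the cKO and 6.38, 6.71, 6.50 and 6.49 in the control. The control was well above background on 1 of 4 arrays, so Cyp4a32 entered the test through the cKO channels. Its ratio was 0.54 ± 0.22 (SD, n = 4 arrays; limma adjusted p = 0.0309), and the levels of the genotypes overlapped. The call was lost in 5 of 13 alternatives. The adjusted p over these settings lay between 0.0106 and 0.342. The ratio itself ran from 0.24 in the deposited table to 1.70 with Agilent's processed signals, so its size is not fixed by these data.

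The other 12 tested genes of the Cyp2j, Cyp2u and Cyp4 group, whose products act on arachidonic and other fatty acids, did not pass. The brightest of them were Cyp2u1 (-0.08), Cyp4f13 (0.11) and Cyp4f16 (0.03). Weaker probes of Cyp2u1 gave 0.10 and 0.15. The 4 tested Cyp2j genes, of epoxygenases, had ratios between -0.28 and -0.12. Cyp2j11, Cyp2j5, Cyp4a14, Cyp4a29, Cyp4f14, Cyp4f37, Cyp4f40 and Cyp4x1 were not tested.

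**Figure D3:**
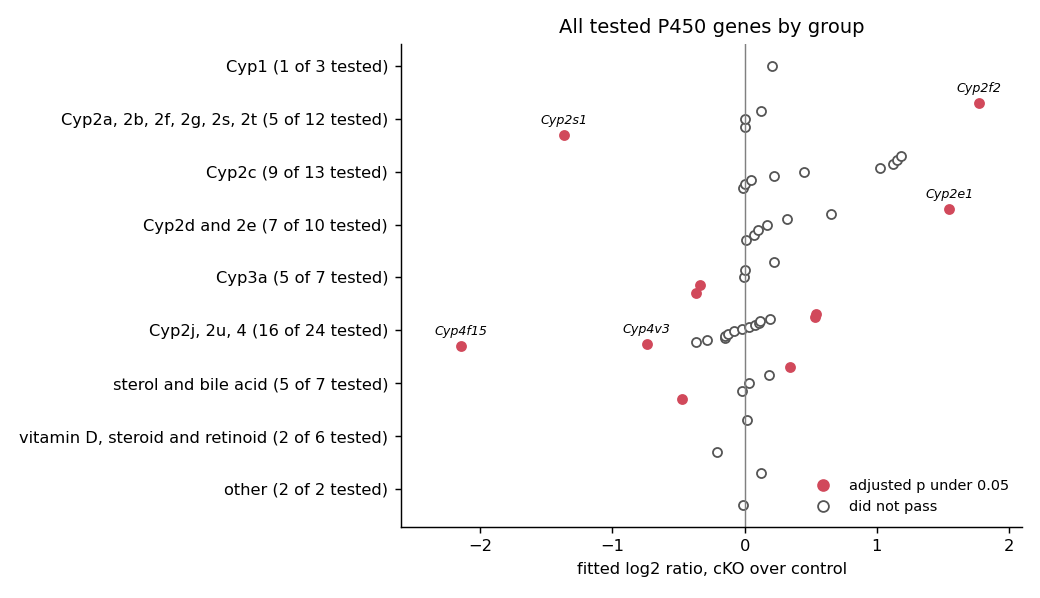
Fitted log2 ratio of cKO over control (horizontal axis) for each of the 52 tested P450 genes, by group (vertical axis). Filled circles passed an adjusted p of 0.05. The groups lie around 0 with a few genes far out, from Cyp4f15 at -2.14 to Cyp2f2 at 1.77, and the Cyp2c genes reach 1.18 with open circles.

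Among the sterol enzymes, Cyp7b1 and Cyp39a1, which hydroxylate oxysterols on the way to bile acids, moved in opposite directions. Cyp7b1 levels were 13.40, 13.44, 13.37 and 13.42 in the cKO and 13.07, 13.23, 13.05 and 12.91 in the control, with no overlap. Its ratio was 0.34 ± 0.13 (SD, n = 4 arrays; limma adjusted p = 0.0444), and 7 of 14 alternatives ended the call, with adjusted p between 0.00756 and 0.166. Cyp39a1 levels were 9.44, 9.94, 10.23 and 9.64 in the cKO and 9.95, 10.55, 10.31 and 10.35 in the control. These groups overlapped, since array 3 differed by only -0.08. The ratio of Cyp39a1 was -0.48 ± 0.28 (SD, n = 4 arrays; limma adjusted p = 0.0316), and 6 of 14 alternatives ended the call, with adjusted p between 0.0227 and 0.347.

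Cyp51, the lanosterol demethylase of cholesterol synthesis, had a ratio of -0.02, Cyp27a1, a mitochondrial sterol hydroxylase, 0.19, and Cyp46a1, the cholesterol hydroxylase of brain, 0.03. None of these 3 passed (adjusted p 0.892, 0.139 and 0.765 in limma). Cyp7a1, the rate-limiting enzyme of bile acid synthesis, and Cyp8b1 were not tested. Of the vitamin D, steroid and retinoid group, Cyp2r1 (-0.21) and Cyp27b1 (0.02), which hydroxylate vitamin D, did not pass. Cyp24a1, Cyp11b2, Cyp19a1 and Cyp26c1 were not tested. Of the remaining pair, Cyp20a1 had 0.12 from its brighter probe and -0.22 from the other, and Cyp2w1 had -0.01.

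The Cyp3a group, which oxidises drugs and steroids, had 2 genes with small decreases. Cyp3a25 had 6.88, 7.30, 7.25 and 7.10 in the cKO and 7.27, 7.57, 7.59 and 7.57 in the control. Cyp3a57 had 6.68, 7.31, 7.24 and 7.14 in the cKO and 7.06, 7.55, 7.58 and 7.53 in the control. Their levels overlapped between genotypes, and all 8 array ratios lay between -0.47 and -0.24. The ratio was -0.37 ± 0.09 for Cyp3a25 (SD, n = 4 arrays; limma adjusted p = 0.0241) and -0.34 ± 0.07 for Cyp3a57 (SD, n = 4 arrays; limma adjusted p = 0.0245). The call ended in 4 of 14 alternatives for Cyp3a25 (adjusted p 0.00900 to 0.244) and in 6 of 14 for Cyp3a57 (0.0103 to 0.554). Promoter windows of these genes were identical at 271 of 302 aligned positions, 89.7%. The probe of neither matched the probe standing for another P450 gene at more than 27 of 60 bases. Probes were compared with probes and not with transcripts. Binding of each probe to RNA of the other gene was therefore not tested, and the 2 decreases may not be separate. Cyp3a11 (0.22), Cyp3a13 (-0.01) and Cyp3a59 (0.00) did not pass, and Cyp3a16 and Cyp3a44 were not tested.

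The Cyp2c genes, of liver enzymes that act on drugs, retinoids and arachidonic acid, were the set with the widest spread between arrays. Of 13 genes 9 were tested and 0 passed in limma. At an unadjusted p under 0.05 there were 4, Cyp2c67, Cyp2c68, Cyp2c29 and Cyp2c44. Cyp2c67 had levels of 8.27, 10.86, 9.29 and 8.25 in the cKO and 7.55, 8.49, 8.20 and 7.82 in the control. Its ratio was 0.72, 2.37, 1.09 and 0.43 on arrays 1 to 4, positive on all and by far the highest on array 2, the male pair. The fitted value was 1.15 ± 0.85 (SD, n = 4 arrays; limma adjusted p = 0.0918). Without array 2 the ratio of Cyp2c67 was 0.67 and passed (adjusted p = 0.0341), and its second probe had 1.03, 3.14, 1.35 and 0.77 on the 4 arrays. Without array 4, when array 2 is the only one left with a green cKO channel, Cyp2c67, Cyp2c68, Cyp2c54, Cyp2c29, Cyp2c44, Cyp2c70 and Cyp2d26 all passed as higher. Of these, Cyp2c54 and Cyp2c29 entered the test through the cKO channels, since their control RNA was well above background on 2 and 3 of 4 arrays.

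Cyp2c68, Cyp2c54, Cyp2c29 and Cyp2c44 are described because their values were seen to share this pattern. Array 2 had a ratio of 2.46 for Cyp2c68, against 0.58, 1.24 and 0.44 on arrays 1, 3 and 4. For Cyp2c54 it had 3.12, against 0.08, 1.09 and 0.18. The 2 dimmer probes of Cyp2c54 stayed between -0.16 and 0.25 on every array. They were well above background on at most 1 array in either genotype, so their ratios cannot show a change. For Cyp2c29 array 2 had 2.59, against 0.17, 0.93 and 0.40. Cyp2c44, named Cyp2c23 in RefSeq, had 1.24 on array 2 and between 0.01 and 0.30 elsewhere. In these 4 genes and Cyp2c67 array 2 ranked first and array 3 second, and the order of arrays 1 and 4 varied. Cyp2c70 (0.22) and Cyp2c38 (0.01), bright as well, and Cyp2c37 (0.05) and Cyp2c55 (-0.01) did not pass. Cyp2c39, Cyp2c50, Cyp2c65 and Cyp2c66 were not tested.

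The probes of Cyp2c67 and Cyp2c68 are not independent, as they match at 55 of 59 overlapping bases. A stretch of 30 bases is shown because it makes their likeness visible, with the differing bases in capitals. The probes lie on mouse chromosome 19, at 39683429-39683488 and 39763420-39763479 in mm9.

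Cyp2c67: acAcagtcccagAaattccatctatattcc

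Cyp2c68: acCcagtcccagGaattccatctatattcc

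Only 2 of the 3486 pairs of P450 genes had probes alike at 42 bases or more, this one and Cyp4a10 with Cyp4a31. The probes standing for the 11 genes past the threshold matched the probe standing for any other P450 gene at no more than 28 of 60 bases. Since only probes were compared with each other, binding to the RNA of a related gene was not tested.

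Liver markers moved in these ureter RNAs, and their values are given beside those of the Cyp2c genes, Cyp2e1 and Cyp2f2. Of 18 hepatocyte markers 7 were higher in the cKO and 0 lower, with a median log2 ratio of 1.41. Their median was 1.70, 2.49, 1.30 and 0.39 on arrays 1 to 4. The summed level was 40837 to 268577 in the cKO and 17743 to 54617 in the control, and none of the 18 was below background in both genotypes. Afp, a protein of fetal liver and 1 of the 7, had a ratio of 2.77, 2.71, 1.47 and 0.77. Over the list the fitted ratios ran from 0.09 for Itih1 to 2.14 for Fga, neither of which passed. Alb (1.68, limma adjusted p = 0.0551) did not pass either. At an unadjusted p under 0.05 in limma there were 14 of the 18 markers. The medians of the tested Cyp2c genes and of the marker list were both highest on array 2. Array 1 was second for the markers and had ratios of at most 0.72 for the 9 tested Cyp2c genes. Cyp2e1 and Cyp2f2 had ratios of 1.37 and 1.61 on array 4, where the marker median was 0.39, and of 1.35 and 1.89 on array 2. The part of these markers in the Cyp2c, Cyp2e1 and Cyp2f2 results was not tested.

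**Figure D4:**
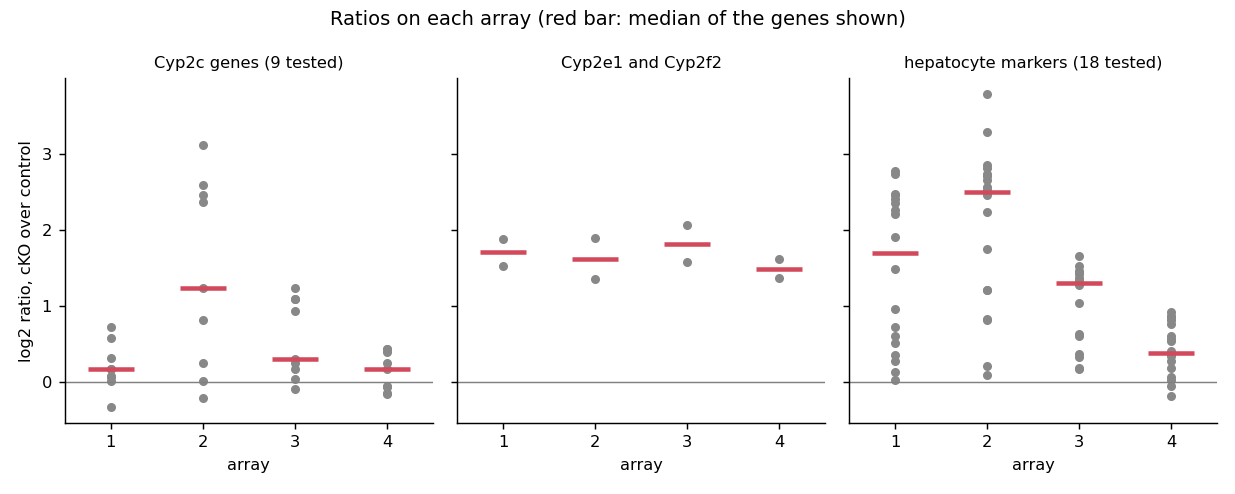
Log2 ratio of cKO over control (vertical axis) by array (horizontal axis) for the 9 tested Cyp2c genes, for Cyp2e1 and Cyp2f2, and for 18 hepatocyte markers, with 1 grey point per gene and red bars for medians. The hepatocyte median is 2.49 on array 2 and 0.39 on array 4, whereas Cyp2e1 and Cyp2f2 stay between 1.35 and 2.06.

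Of the other cell type lists, the adrenal cortex had 2 of 9 tested genes higher, Hsd3b1 (1.84) and Cyp11b1. At an unadjusted p under 0.05 in limma there were 6. Star (0.13), Nr5a1 (0.06) and Mc2r (0.14) did not pass. In the summed adrenal level the bright probe of Scarb1 (0.18, not past the threshold) weighs most. That sum was 8698 to 9919 in the cKO and 6712 to 8195 in the control. The proximal tubule had 1 of 8 higher, Cubn (2.27, limma adjusted p = 0.0030), and a median ratio of 0.04. Slc34a1 (-0.55), Slc22a6 (-0.22) and Lrp2 (-0.08) did not pass. Its sums, in which bright probes such as that of Aqp1 (0.16, not past the threshold) weigh most, were 31922 to 35821 in the cKO and 26528 to 28667 in the control. Cubn also contributes to the difference between these sums, with mean levels of 12.45 in the cKO and 10.18 in the control. Intestinal epithelium had 2 higher and 2 lower of 7 (the higher Phgr1 entered the test through the cKO, with the control well above background on 1 of 4 arrays), with sums of 2194 to 4150 in the cKO and 1982 to 2599 in the control. Ureter smooth muscle and mesenchyme had 0 of 7 called in limma, with 2 at an unadjusted p under 0.05. Of the 6 family genes left out by the rule, Cyp11b1, an adrenal steroid hydroxylase, and Cyp26a1, which clears retinoic acid, were higher at 0.94 and 0.48. The control was well above background on 1 of 4 arrays for each. Cyp11b1 is the same gene as in the adrenal list. The part of these lists in the P450 results was not tested.

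The Cyp2d group had a like case in Cyp2d26, with ratios of 0.33, 1.81, 0.43 and 0.04 and a fitted 0.65 (limma adjusted p = 0.237). Cyp2d12 (0.32) and Cyp2d11 (0.10), the other bright genes, did not pass, and neither did Cyp2d22, Cyp2d13 or Cyp2d40. Cyp2d10, Cyp2d34 and Cyp2d9 were not tested. Across the 52 tested genes, 27 had their highest ratio on array 2, whereas 31.9% of all tested genes did. The male pair was compared with the female pairs in the same model, where the difference equals array 2 minus array 4 beside the dye term. For Cyp2d26 this difference was 1.77. It rests on 1 male pair and 1 residual degree of freedom, so no call is drawn from it, and sex and array cannot be told apart.

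Of the dioxin-inducible Cyp1 genes, Cyp1b1, which oxidises oestrogens and retinol, was tested. Cyp1b1 had levels of 10.11, 9.93, 9.88 and 10.42 in the cKO and 9.78, 9.72, 9.74 and 10.27 in the control. Its ratio of 0.21 was positive on all arrays and did not pass (limma adjusted p = 0.106). Cyp1a1 and Cyp1a2 were well above background on 0 arrays in either genotype. The 32 P450 genes that were not tested comprised 10 such genes and 22 that were well above background on 1 to 3 arrays of at least 1 genotype. For 16 of the 52 tested genes the ratio was above 0 on all 4 arrays, and for 9 it was below 0 on all. A common sign on 4 arrays was found for 30.6% of all tested genes.

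Many P450 genes lie in clusters of tandem copies, and most genes of these clusters did not pass. On chromosome 7, Cyp2s1 (lower) and Cyp2f2 (higher) belonged to a cluster of 12 P450 genes, their probes 1331 kb apart in mm9. Cyp2s1 was the first gene of the cluster and Cyp2f2 the last but one. Cyp2t4, the last gene, 24.94 kb beyond Cyp2f2, had a ratio of 0.12 and did not pass. On chromosome 17, Cyp4f15 was the only one of 5 tested Cyp4f genes that passed. Cyp4f16, 151.88 kb to one side, had 0.03, and Cyp4f13, 222.46 kb to the other, had 0.11. Farther out, Cyp4f17 had 0.19. Cyp4f39, the first gene of the cluster, had -0.37 and was below 0 on all 4 arrays (limma adjusted p = 0.132). The genes not tested had mean ratios of -0.23 (Cyp4f40, below 0 on all 4 arrays), 0.02 (Cyp4f37) and 0.05 (Cyp4f14). On chromosome 4 the probes of Cyp4a32 and Cyp4b1, both higher, lay 2.55 kb apart, with ratios of 0.54 and 0.53. Cyp3a25 and Cyp3a57, both lower, lie on chromosome 5 with Cyp3a11 between them. In the Cyp2j, Cyp2c and Cyp2d clusters none of 4, 9 and 6 tested genes passed.

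**Figure D5:**
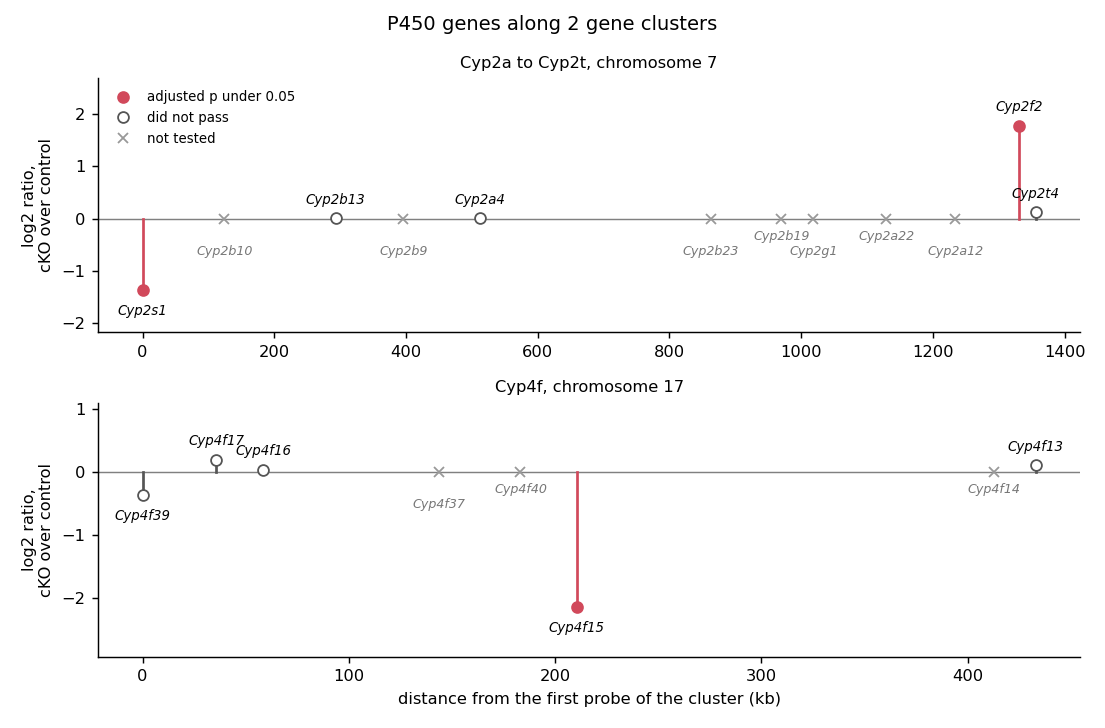
Fitted log2 ratio of cKO over control (vertical axis) by distance from the first probe in kb (horizontal axis) for the P450 genes of a cluster on chromosome 7 and the Cyp4f cluster on chromosome 17. Filled circles passed the threshold, open circles did not and crosses were not tested. Cyp2s1 lies at the left end of the upper plot and Cyp2f2 beside Cyp2t4 near the right end. Cyp4f15 is the only filled circle in the lower plot, where Cyp4f39 also lies below 0 at -0.37.

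The probes of the 4 most changed genes lie at chr7:147960628-147960687 for Cyp2e1, chr7:27918570-27918629 for Cyp2f2, chr7:26587495-26587554 for Cyp2s1 and chr17:32840088-32840147 for Cyp4f15, in mm9. The exon or UTR that each probe falls in was not determined, since no annotation of that build was used.

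P450 enzymes need electrons from partner proteins and a haem group. Of 22 tested genes for electron donors and for the making or breakdown of haem, 0 passed in limma, with a median ratio of 0.03. At an unadjusted p under 0.05 in limma there were 3, Por, Cyb5b and Pgrmc1. Por, the reductase that serves most P450 enzymes, named here for that role, had -0.17 (adjusted p = 0.190). Cyb5a (0.10) and Pgrmc1 (-0.22) were, with the regulator Pparg (-0.45, limma adjusted p = 0.128), the 3 brightest partner and regulator genes that did not pass. Of the 6 epoxide hydrolases, which act on P450 products, and prostanoid synthases, which are P450 proteins under other names, 0 passed in limma, and Ephx2, the 1 gene with an unadjusted p under 0.05, came nearest at -0.36 (adjusted p = 0.0526).

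Of 22 tested regulators of P450 genes, 4 were higher in the cKO and 5 lower. Ahr, the receptor for dioxins, had 0.35, 0.67, 0.57 and 0.56 on arrays 1 to 4 and a fitted ratio of 0.54 (limma adjusted p = 0.0085). Ahrr, the repressor that is also a target of that receptor, was higher at 0.51. Of the P450 genes that the receptor can induce, Cyp1a1 and Cyp1a2 were not tested. Cyp1b1 (0.21, above 0 on all 4 arrays) did not pass, and Cyp2s1 was lower (-1.37). Activity of the receptor was not measured. Foxa3, a liver and gut factor, was higher at 1.73. Lower were Cebpa (-0.70), a liver and epithelial factor, Nfe2l2 (-0.82), which governs the response to oxidants, Vdr (-0.53), the vitamin D receptor, Rxra (-0.34), the partner of several nuclear receptors, and Foxa1 (-0.82), a urothelial factor. Ahrr, Rxra and Foxa1 are named after their values were seen, as further genes past the threshold.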

How the data were processed

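Spot intensities and local backgrounds of both channels were deposited by the authors. The submitters' processing notes name Agilent Feature Extraction, version 10.7.3.1. Per the labels the input was 200 ng of RNA, amplified in 1 round. All arrays were scanned on 1 slide. The log2 values in the deposited table are cKO over control, as found by setting it against the scanner signals (slopes 0.9997 to 1.001, median 0 on each array, 7718 to 12487 exact zeros); it was used as an alternative.

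Mean signals were corrected with normexp (offset 50, which draws ratios of dim probes toward 0), normalized within arrays by loess (weight 0 for control spots), then expressed as cKO over control. Outlier spots (3.04% to 3.58%) were left out, no spot was saturated, and 4 spots per probe were averaged. The brightest probe stood for a gene. Levels are loess and Aquantile values per channel, which cannot be compared between probes. The summed level of a list adds its unlogged levels, so its brightest probes weigh most, and it is a description only. Ratios were fitted in limma 3.58.1 (R 4.3.3) with a dye term, leaving 2 residual degrees of freedom beside the prior, and adjusted by Benjamini-Hochberg. SDs are over 4 arrays, whose number limits the precision. The 14 alternatives were Agilent's processed signals, the deposited table, scaling between arrays, an offset of 16, no filter and a stricter filter on dim probes, the mean of probes, no dye term, separate channels with and without an array block, and each array left out. The script was tested on simulated data. Names follow RefSeq (28328 probes by accession, 3400 by symbol, 243 by older symbol; 1379 kept the file's name and 6079 had none).

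One regulator is not reported here by name. The P450 genes and all lists were chosen with earlier results of these data known. Named are each P450 gene past the threshold, up to 3 bright others per group, up to 6 regulators with the lowest p and the 3 brightest partner genes that did not pass; the others complete a group or a count, or are said to be chosen later where they appear.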

Additional observations from a re-analysis of the deposited data

Results flagged for a closer look

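Among the 45 sets of 4 array values examined (34 named P450 genes and 11 lists), 3 had 1 array far from the other 3 by Dixon's test. Chance flags about 1 in 20. Cyp4v3 had -1.07 on array 1, where the nearest other array had -0.64. Cyp2r1 had -0.41 on array 1, with the nearest at -0.16. Cyp51 had 0.18 on array 2, with the nearest at -0.08. The Cyp51 ratio was thus positive in the male pair and negative in all 3 female pairs, with a fitted difference of 0.26 (limma adjusted p = 0.973) that rests on 1 male pair and 1 residual degree of freedom.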

How the results depend on the processing

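Of the values of single named genes under 14 alternatives, 416 kept their direction and side of the threshold, 29 lost the call and 4 gained one. In 24 the ratio changed sign, in 12 genes that did not pass either way; the one farthest from 0 was Cyp2c70 at 0.22. Cyp3a13 was 0.0084 with Agilent's processed signals, 0.014 with the deposited table and 0.032 with the mean of probes. Cyp3a59 was -0.0052 with processed signals and -0.032 with the deposited table, and Cyp2w1 was 0.052 with that table. The mean of probes gave -0.048 for Cyp20a1 and 0.057 for Cyp2u1, and scaling gave -0.0010 for Cyp2b13. Leaving out each array gave ratios for Cyp2a4 of -0.026 to 0.039, Cyp2b13 -0.043 to 0.046, Cyp27b1 -0.0092 to 0.046, Cyp2c70 -0.018 to 0.46 and Cyp2c38 -0.14 to 0.15. It gave Cyp4f16 -0.0027 to 0.067, Cyp3a59 -0.11 to 0.12, Cyp3a13 -0.081 to 0.069, Cyp2w1 -0.041 to 0.012 and Cyp51 -0.086 to 0.044. Cyp2e1, Cyp2s1, Cyp4b1, Cyp4f15 and Cyp4v3 kept the call throughout. With the deposited value table, 3 P450 genes were higher, and 255 and 582 of all genes were higher and lower. With separate channels and the array as a replicate block (intra-array correlation 0.632), 900 of all genes were higher; pairing comes from the shared array. Without that replicate block 2 P450 genes were higher and 3 lower, 120 and 438 of all genes, and 2 and 2 of the partner and regulator genes. Leaving out each array in turn gave 3 to 10 higher and 3 to 5 lower P450 genes, 276 to 363 higher and 560 to 770 lower of all genes, and 3 to 6 lower partner and regulator genes. Those fits have fewer arrays. Otherwise the cause was not tested. The hepatocyte median lay between 1.01 and 1.98 over all alternatives. For probes near background, such as Cyp4a32, Cyp3a25 and Cyp3a57, dim signal limits the ratios.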
